A study of Homo sapiens with 3 samples.

Results

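Oxidative phosphorylation is the chain of reactions in the inner mitochondrial membrane that turns the electrons of NADH and succinate into ATP. Complex I (NADH dehydrogenase) and complex II (succinate dehydrogenase) pass electrons to ubiquinone, complex III (the cytochrome bc1 complex) passes them to cytochrome c, and complex IV (cytochrome c oxidase) passes them to oxygen. Complex V (ATP synthase) uses the proton gradient built on the way to make ATP. Complexes I, III, IV and V join subunits encoded in the nucleus to a few encoded in mitochondrial DNA, and every subunit of complex II is encoded in the nucleus. The nuclear-encoded genes are described here in drug-resistant and vehicle-treated lung cancer cells.

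The genes were found by name, as all those that begin with NDUFA, NDUFB, NDUFC, NDUFS or NDUFV and a digit, with UQCR, with COX4 to COX8 or with ATP5, plus the 4 genes SDHA to SDHD. Of 91 such genes in the deposited table, 81 reached 1 FPKM (fragments scaled to transcript length and to the mapped fragments of the library) in at least 1 library and are described here. They stand among 13425 genes that passed the same limit. The genes were chosen by name and by these FPKM values, so their levels are given as a description and that a gene passed the limit is no result. By name, 38 belong to complex I, 4 to complex II, 9 to complex III, 13 to complex IV and 17 to complex V. The 10 genes left out are isoforms of limited expression, pseudogenes, gene copies or a read-through transcript. The nearest to the limit were COX8C outside it, with a highest value of 0.686 FPKM, and COX6B2 and UQCRHL inside it, with 1.23 and 1.45 FPKM. COX6B2 and UQCRHL reached the limit in the erlotinib-resistant library alone, so the limit fixes their direction against the other libraries. The other 79 stood at 5 FPKM or more in every library.

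The names do not match the complexes exactly. Of the 81 genes, 75 encode a subunit or a subunit isoform. COX7A2L encodes a factor that joins respiratory complexes, and COX4NB (now EMC8), next to COX4I1, encodes a protein of the endoplasmic reticulum. ATP5S and ATP5SL (now DMAC2L and DMAC2) encode no subunit of the synthase, UQCRHL is a copy of UQCRH, and NDUFC2-KCTD14 is a read-through transcript. NDUFA4 carries a complex I name and encodes a subunit of complex IV. The 19 mitochondrial rows of the table were at 0 in all 3 libraries, so the subunits encoded in mitochondrial DNA were not analysed here.

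The study profiled 3 populations of HCC827, an established human non-small cell lung cancer line whose growth depends on a mutated EGF receptor. Every population, vehicle included, carried the ClonTracer barcode library and was a polyclonal pool rather than a clone. The dual-resistant cells came from the erlotinib-resistant cells by 10 days with 2 µM erlotinib, which blocks the EGF receptor kinase, and 0.2 µM crizotinib, which blocks the MET kinase. The erlotinib-resistant cells came from 47 days with 2 µM erlotinib. The vehicle cells received 0.1% DMSO for 4 days. Each population has 1 library, so no difference has a replicate, a test or an estimate of error between cultures. Drugs, length of culture and resistance differed together between the populations and cannot be told apart. In RNA from bulk cells, fewer cells of a kind and less RNA per cell cannot be told apart either.

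The libraries summed to 494817 FPKM (dual-resistant), 528920 FPKM (erlotinib-resistant) and 596084 FPKM (vehicle) over all genes. No counts are given, so the depth is known only roughly. Taking percentile 1 of the low values of 535 single-exon genes as the worth of 1 fragment, 1 FPKM in a transcript of 1 kb stood on about 45.3, 50.6 and 69.9 fragments. On that estimate, counting alone gave the 79 genes a 95% half-width of 0.02 to 0.18 on the log2 scale, which covers counting error only. Of 8 lung epithelial markers, all 8 were expressed in every library, and EPCAM, an adhesion molecule, stood at 41.1 FPKM in the dual-resistant, 345 FPKM in the erlotinib-resistant and 306 FPKM in the vehicle library. In the dual-resistant library 5 of the 8 were at least 2-fold lower than in each of the others, and the 8 summed to 2330 FPKM there, against 5322 and 5235 FPKM in the others. Of 7 fibroblast markers, 3 reached 1 FPKM, summing to 7.92 FPKM (dual-resistant), 2.55 FPKM (erlotinib-resistant) and 3.87 FPKM (vehicle), with PDGFRA at 0 throughout. Among these, COL1A1 passed 1 FPKM in every library, at 5.38, 2.48 and 3.84 FPKM. LUM (1.52 FPKM) and PDGFRB (1.01 FPKM) passed only among dual-resistant cells. Their direction, and with it part of the higher sum, was thus set by the 1 FPKM limit. Of 5 leukocyte markers, CD14 alone reached 1 FPKM, at 4.10 FPKM in vehicle, with CD3E at 0 throughout, and no endothelial marker reached it. CD14 was under 1 FPKM in both resistant libraries, and its direction was likewise set by the limit. The part of these marker differences in the results was not tested.

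The genes as a group took nearly the same share of all FPKM in the 3 libraries, and at most 1 of 81 differed by 2-fold in any comparison. Within that share, complex IV took less in both resistant libraries than in vehicle, and complexes II, III and V took more. For complex III this was lost without its gene UQCRH. The FPKM sums of complexes III and V as deposited were not above vehicle. Most of the difference of complex IV in FPKM lay in 4 of its genes, COX5B, COX6A1, COX7B and COX7C. These had its largest log2 differences below vehicle in the dual-resistant library. As deposited, all 13 of its genes by name were lower there, and 10 of the 11 subunits found in most tissues, NDUFA4 included. Named for those log2 differences after their values were seen, the 4 have their promoters shown here. Beside them stand those of SDHA and ATP5G1, which had the largest differences above vehicle in the dual-resistant library.

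The 80 bases before the annotated start of each are given from RefSeq (GRCh38.p14), 5′ to 3′ on the gene's strand, in lower case. Capitals mark 3 motifs searched on both strands: GCGCAN followed directly by GCGC, the core bound by the transcription factor NRF1, CCGGAAG, a core bound by ETS factors such as GABP, and AANATGGC, a core bound by YY1. All 3 factors are known regulators of nuclear genes for mitochondrial proteins.
COX5B: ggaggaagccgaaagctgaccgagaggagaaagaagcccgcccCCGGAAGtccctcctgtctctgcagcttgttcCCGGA
COX6A1: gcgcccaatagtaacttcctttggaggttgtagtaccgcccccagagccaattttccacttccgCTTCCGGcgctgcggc
COX7B: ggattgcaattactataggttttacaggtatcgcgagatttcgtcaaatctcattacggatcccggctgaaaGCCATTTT
COX7C: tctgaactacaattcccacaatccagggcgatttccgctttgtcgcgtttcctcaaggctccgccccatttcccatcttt
SDHA: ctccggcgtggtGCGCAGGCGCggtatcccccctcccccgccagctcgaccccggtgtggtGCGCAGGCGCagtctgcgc
ATP5G1: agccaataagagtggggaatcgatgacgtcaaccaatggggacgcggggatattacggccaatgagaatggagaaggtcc

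On GRCh38.p14 these stretches are, all on the plus strand, chr2:97645982-97646061 (COX5B), chr12:120438033-120438112 (COX6A1), chrX:77899388-77899467 (COX7B), chr5:86617861-86617940 (COX7C), chr5:218240-218319 (SDHA) and chr17:48892707-48892786 (ATP5G1). The SDHA stretch holds 2 matches to the NRF1 core, and those of COX5B and COX6A1 hold the ETS core. COX7B holds a match to the YY1 core, and COX7C and ATP5G1 show none of the 3 in this window. The last capitals of COX5B are the part of a second ETS core that runs past the start.

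Over the whole window of 250 bases before to 50 after the start, 67 of the 81 genes matched a promoter. The NRF1 core was found in 15 of 67 of them (22.4%), against 9.67% of 15843 protein-coding genes and 13.5% of the 10039 compared genes with a promoter. By complex it stood in 6 of 33 genes of complex I, 2 of 3 of complex II, 4 of 7 of complex III, 0 of 12 of complex IV and 3 of 12 of complex V. The ETS core was found in 21 of 67 (31.3%), against 22.8% of the compared genes, and in 6 of 12 genes of complex IV. The YY1 core was found in 26 of 67 (38.8%), against 12.6% of the compared genes. These are matches of letters, a description of the windows and not of binding.

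The share of all FPKM taken by the 81 genes was 2.05% in the dual-resistant, 1.97% in the erlotinib-resistant and 2.02% in the vehicle library. Within a library the genes ranged widely. The median was 86.9 FPKM (dual-resistant), 88.5 FPKM (erlotinib-resistant) and 98.7 FPKM (vehicle), while all compared genes had medians of 10.5, 10.5 and 10.1 FPKM. In these libraries 78, 79 and 78 of the 81 genes lay above the median of all compared genes, and 36, 35 and 39 reached 100 FPKM. The order of the genes was much the same in all libraries, with a Spearman rho of 0.94 to 0.95 between any 2 of them over the 81 genes, which share their lengths and annotation.

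**Figure D1:**
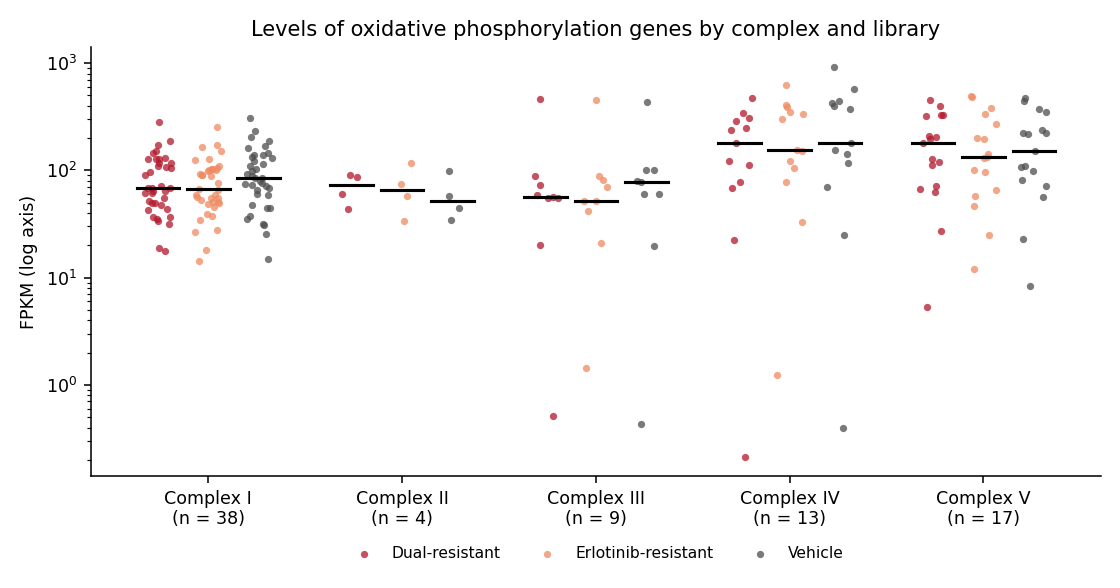
FPKM (log axis) of each of the 81 genes, by complex and library, with 1 point per gene and a black bar at the median. The median of complex IV is 178 FPKM in the dual-resistant, 155 FPKM in the erlotinib-resistant and 182 FPKM in the vehicle library, and the low points of complexes III and IV are UQCRHL and COX6B2.

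Complex IV, which reduces oxygen, took 0.503% of all FPKM in dual-resistant cells, 0.576% in erlotinib-resistant cells and 0.642% in vehicle cells. Complex V took 0.649%, 0.600% and 0.546% in the same order of libraries, and complex II took 0.0570%, 0.0534% and 0.0398%. Vehicle was thus the highest of the 3 for complex IV and the lowest for complexes II and V. Complex I took 0.662%, 0.580% and 0.637%, with the erlotinib-resistant library lowest. Complex III took 0.176%, 0.163% and 0.157%, with vehicle lowest here too. UQCRH alone, which encodes the hinge protein of complex III, made up about as much as its other genes together. Without UQCRH complex III took 0.0827%, 0.0770% and 0.0842%, with vehicle highest. Multiplying a library by a factor leaves these shares unchanged, but they rest on the library totals, which differed. As deposited, complex V summed to 3213 FPKM (dual-resistant), 3174 FPKM (erlotinib-resistant) and 3253 FPKM (vehicle). By FPKM sums, complexes III and V were thus highest in vehicle.

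**Figure D2:**
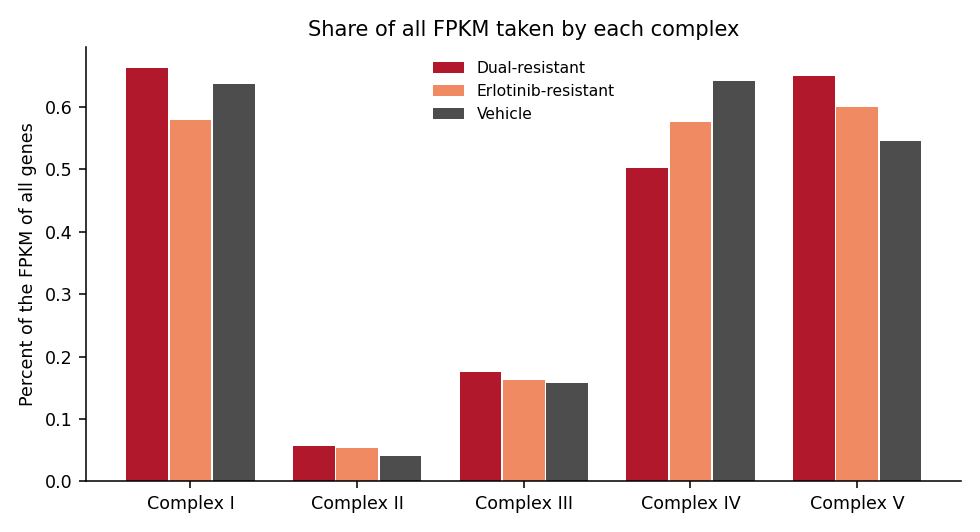
Percent of the FPKM of all genes taken by each complex (bars, from 0), in the dual-resistant, erlotinib-resistant and vehicle libraries. Complex IV stands at 0.503% in the dual-resistant and 0.642% in the vehicle library, and complex V at 0.649% and 0.546%.

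For comparisons between 2 libraries, the log2 difference of FPKM + 1 was taken, and a gene was called higher or lower at 2-fold or more on that scale. Between the erlotinib-resistant and vehicle libraries, 0 of the 81 genes were called higher and 1 lower, against 3.81% higher and 6.03% lower of all 13381 genes compared. Between the dual-resistant and erlotinib-resistant libraries, 0 were called higher and 1 lower, against 10.1% and 7.22% of 13385. Between the dual-resistant and vehicle libraries, 0 were called either way, against 11% higher and 10.4% lower of 13378. Whether these counts differ from those over all genes was not tested. The comparisons share libraries and are not independent.

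At a lower limit of 1.5-fold, the erlotinib-resistant library had 2 of the 81 genes higher and 9 lower than the vehicle library, against 12.4% and 14.3% of all genes. The 2 higher were UQCRHL and COX6B2, whose direction the 1 FPKM limit fixed, so they carry no information here. The dual-resistant library had 5 higher and 6 lower than the erlotinib-resistant library, against 18.5% and 16.9% of all genes, and the 6 include the same UQCRHL and COX6B2. Against vehicle it had 3 higher and 9 lower, with 20.7% and 20.6% of all genes as the background. The interquartile range of the differences was 0.57, 0.54 and 0.49 on the log2 scale for the 81 genes, and 0.68, 0.80 and 0.93 for all genes, in the same order of comparisons. Most of the 81 genes stood above the median level of all genes, and neither the ranges nor the counts were matched for level.

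Small shifts in 1 direction depend on the scaling. The median log2 difference of the 81 genes was -0.19 for erlotinib-resistant minus vehicle, 0.05 for dual-resistant minus erlotinib-resistant and -0.16 for dual-resistant minus vehicle, where all genes stood at 0.00, -0.03 and -0.01. Scaling the libraries to equal sums moved the median of all genes by 0.14, 0.07 and 0.23, and turned the last of the 3 medians of the 81 genes to 0.10. Relative to the median of all genes the 3 medians were -0.20, 0.08 and -0.15 as deposited and -0.16, 0.10 and -0.12 with equal sums. Directions below are of the values as deposited, and medians relative to all genes are given where they matter.

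The 81 genes encode short proteins, with a median of 153 residues against 474 for the other genes, and values of short genes moved between libraries too. Of other genes that averaged 20 FPKM or more over the 3 libraries, the 711 that encode at least 100 and under 200 residues had a median log2 difference of -0.26 for erlotinib-resistant minus vehicle, while the 1968 that encode 400 or more stood at 0.06. The 37 of the 81 genes in the shorter class stood at -0.18 in that comparison. For dual-resistant minus vehicle the same classes of other genes stood at -0.29 and 0.02, and those 37 genes at -0.21. In the class under 100 residues, 115 other genes at that level stood at -0.40 in this comparison, and 20 of the 81 genes at -0.12. For erlotinib-resistant minus vehicle, 114 other genes of that class stood at -0.20 and the same 20 at -0.25. The part of transcript length in the medians of these genes was not tested.

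**Figure D3:**
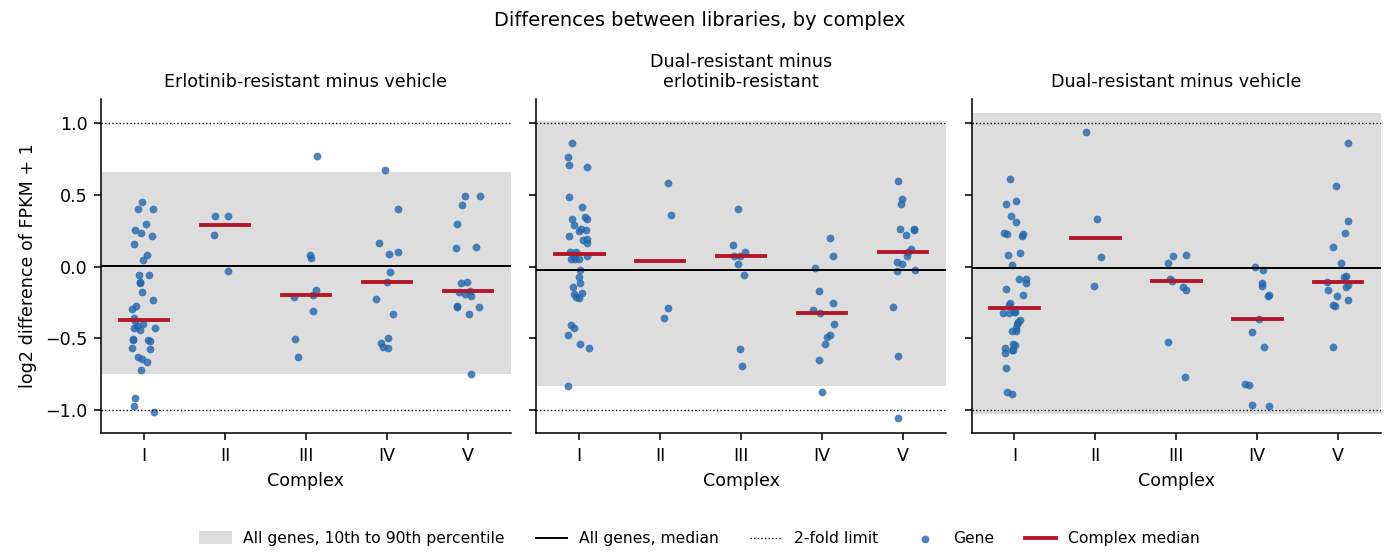
log2 difference of FPKM + 1 for each of the 81 genes (blue points) by complex, for the 3 comparisons, with the median of each complex in red, the median of all genes as a black line, their 10th to 90th percentile in grey and the 2-fold limit dotted. Only NDUFB11, in the left panel, and ATP5S, in the middle one, lie past the limit, and complex IV lies below the other complexes in the middle panel, with a median of -0.33.

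Complex IV held COX7C, the gene with the highest level of the 81 in all 3 libraries. COX7C, a small subunit of the membrane part of the oxidase (Entrez ID 1350, GRCh37 chromosome 5, 85913784 to 85916583), had 471 FPKM in the dual-resistant, 624 FPKM in the erlotinib-resistant and 924 FPKM in the vehicle library. COX7B, another small membrane subunit (Entrez ID 1349, chromosome X, 77154961 to 77160881), had 290, 404 and 572 FPKM. Both were lower in each resistant library than in vehicle and lowest in the dual-resistant one. Against vehicle, dual-resistant cells were 1.96-fold lower in COX7C and 1.97-fold lower in COX7B, just within the 2-fold limit.

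COX5B, a zinc-binding subunit on the matrix side (Entrez ID 1329, chromosome 2, 98262521 to 98264657), had 251 FPKM in the dual-resistant, 299 FPKM in the erlotinib-resistant and 442 FPKM in the vehicle library. COX6A1, the form of subunit VIa found in most tissues (Entrez ID 1337, chromosome 12, 120875904 to 120878529), had 239, 337 and 424 FPKM. The same order of libraries held for both. The dual-resistant library was 1.76-fold lower than vehicle in COX5B and 1.77-fold lower in COX6A1.

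Without these 4 genes, the other 9 of complex IV took 0.250% of all FPKM in the dual-resistant, 0.262% in the erlotinib-resistant and 0.245% in the vehicle library. By this share, the vehicle library is no longer the highest once the 4 are left out. By the FPKM sum it still was, at 1237 (dual-resistant), 1384 (erlotinib-resistant) and 1461 FPKM (vehicle). The 4 were named for their large differences after the values were seen, so leaving them out had to shrink the difference. Without COX7C alone, the shares were 0.408%, 0.458% and 0.486%. COX4I1, the regulatory subunit IV found in most tissues, stood at 309 FPKM (dual-resistant), 387 FPKM (erlotinib-resistant) and 398 FPKM (vehicle). COX8A, a small membrane subunit, stood at 347, 349 and 376 FPKM, and COX6B1, which faces the intermembrane space, at 178, 155 and 182 FPKM. The libraries were close together in COX8A and COX6B1, and COX4I1 was lower in dual-resistant cells than in either of the others.

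Among the rest of the complex IV names, COX6C stood at 69.2 FPKM in the dual-resistant, 78.1 FPKM in the erlotinib-resistant and 69.5 FPKM in the vehicle library, and COX5A lay between 122 and 151 FPKM. COX7A2, the form of subunit VIIa found in most tissues, stood at 112, 106 and 154 FPKM. COX7A2L stood at 78.2, 123 and 116 FPKM and was the lowest of the complex IV names with at least 10 FPKM between dual-resistant and erlotinib-resistant cells, 1.57-fold lower in the dual-resistant. COX4NB stood at 22.4, 33.1 and 24.7 FPKM. In all, the 13 genes were lower in dual-resistant than in vehicle cells for 13 of 13 as deposited, for 11 of 13 under median-ratio scaling and for 8 of 13 with equal sums. Against the erlotinib-resistant library 11, 10 and 10 of 13 were lower, counting COX6B2, whose direction the 1 FPKM limit fixed. Of the 11 subunits found in most tissues, NDUFA4 included, 8 were lower there as deposited, with a median of -0.25. Against vehicle 10 of the 11 were lower as deposited, with NDUFA4 higher. The differences of COX6B1, COX6B2 and COX6C from vehicle in dual-resistant cells lay within the counting half-width. With equal sums 4952 of 13378 of all genes were lower than vehicle in dual-resistant cells, and 11 of the 13 lay below the median of all genes. The median over the 13 was -0.37 for dual-resistant minus vehicle and -0.33 for dual-resistant minus erlotinib-resistant, and the median of the other 68 genes was -0.14 and 0.07.

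**Figure D4:**
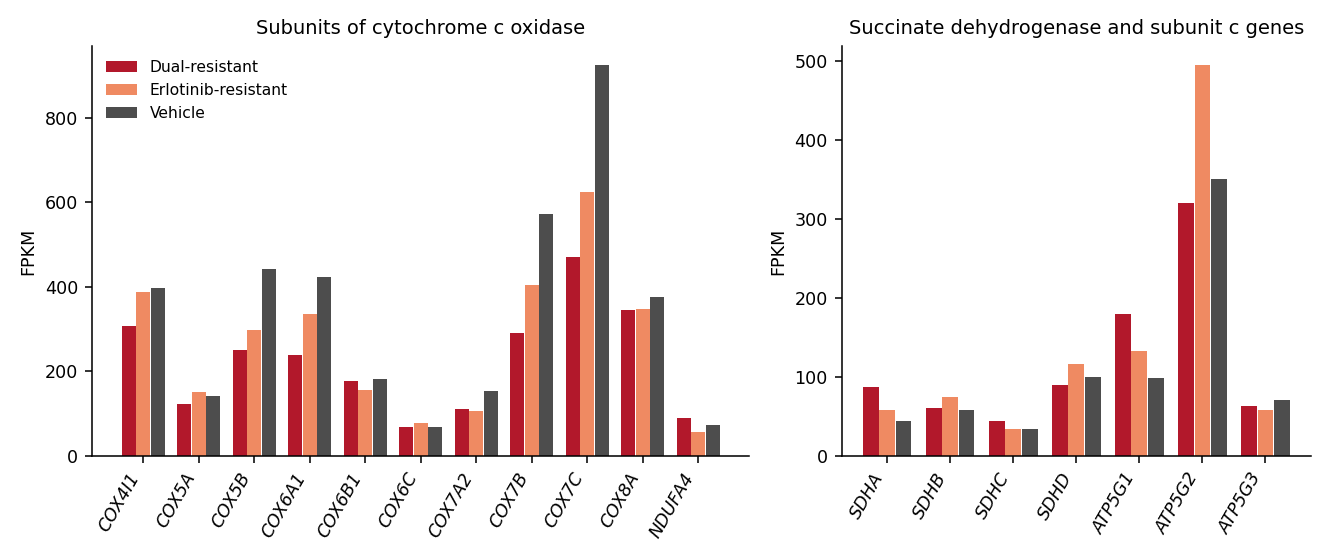
FPKM (bars, from 0) of the subunits of cytochrome c oxidase found in most tissues, on the left, and of the SDH genes and the 3 ATP5G genes, on the right, in the dual-resistant, erlotinib-resistant and vehicle libraries. COX7C stands at 471 FPKM in the dual-resistant and 924 FPKM in the vehicle library, while SDHA and ATP5G1 are highest in the dual-resistant library, at 86.9 and 180 FPKM.

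The tissue and oxygen-regulated forms of these subunits were at or near 0. COX4I2, the form of subunit IV found in lung, COX6A2, the form found in heart and skeletal muscle, COX7B2 and NDUFA4L2, which is induced by low oxygen, were listed at 0 in all 3 libraries. COX7A1, the muscle form of subunit VIIa, stood at 0.0969 FPKM in the dual-resistant, 0.0747 FPKM in the erlotinib-resistant and 0.0600 FPKM in the vehicle library. COX8C stood at 0.329, 0.686 and 0.198 FPKM, and COX6B2, a form found in testis, at 0.215, 1.23 and 0.394 FPKM. Each of the COX forms lay far below its partner, COX4I1, COX6A1, COX7A2, COX8A or COX6B1, in every library. NDUFA4 (chromosome 7), the partner of NDUFA4L2, stood at 90.8, 55.8 and 73.1 FPKM, and unlike the COX genes it was highest in the dual-resistant library.

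Complex II was the only complex by name whose median was higher than vehicle in both resistant libraries, as deposited and with equal sums, by 0.20 (dual-resistant) and 0.29 (erlotinib-resistant) on the log2 scale as deposited, and it holds 4 genes. SDHA, the flavoprotein that oxidises succinate (Entrez ID 6389, GRCh37 chromosome 5, 218356 to 256814), had 86.9 FPKM in the dual-resistant, 57.6 FPKM in the erlotinib-resistant and 44.8 FPKM in the vehicle library. It was highest in the dual-resistant library, 1.92-fold above vehicle. The gene has near-identical pseudogenes, among which the counting could split reads. Of these, SDHAP1 stood at 2.57, 3.82 and 3.17 FPKM, SDHAP2 at 2.33, 2.59 and 2.80 FPKM and SDHAP3 at 5.45, 4.68 and 7.24 FPKM. With the 3 added, the dual-resistant library was 1.66-fold above vehicle.

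The other 3 genes of complex II did not follow SDHA. SDHB, the iron-sulfur subunit, stood at 60.7 FPKM in the dual-resistant, 74.3 FPKM in the erlotinib-resistant and 58.0 FPKM in the vehicle library. SDHC, a membrane anchor, stood at 44.1, 34.1 and 34.8 FPKM, and SDHD, the other anchor, at 90.5, 117 and 99.7 FPKM. SDHB and SDHD were highest in the erlotinib-resistant library and SDHC in the dual-resistant one, so the 4 subunits of 1 enzyme did not share an order of libraries.

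Complex V was close to even, with 11 of 17 genes below vehicle in each resistant library and medians of -0.11 (dual-resistant) and -0.17 (erlotinib-resistant) on the log2 scale. With equal sums 14 of 17 were above vehicle in the dual-resistant library, where 8391 of 13378 of all genes were too. Under either scaling, 11 of 17 lay below the median of all genes in that comparison. Of the catalytic F1 part, ATP5B, the beta subunit, stood at 399.2 FPKM in the dual-resistant, 485 FPKM in the erlotinib-resistant and 441 FPKM in the vehicle library, and ATP5A1, the alpha subunit, at 208, 203 and 218 FPKM. ATP5E, the epsilon subunit, stood at 454, 379 and 477 FPKM. Within F1 the 5 genes lay between -0.27 and 0.03 for dual-resistant minus vehicle. ATP5C1 (gamma) and ATP5D (delta) marked these ends.

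The 3 ATP5G genes encode the same mature subunit c, which forms the rotating ring in the membrane. ATP5G1 (now ATP5MC1, Entrez ID 516, GRCh37 chromosome 17, 46970148 to 46973232) had 180 FPKM in the dual-resistant, 133 FPKM in the erlotinib-resistant and 98.6 FPKM in the vehicle library. It was highest in the dual-resistant library, 1.82-fold above vehicle. ATP5G2 stood at 321, 495 and 351 FPKM and was highest in the erlotinib-resistant library, and ATP5G3 stood at 63.1, 58.0 and 70.8 FPKM. Summed, the 3 genes stood at 564 FPKM (dual-resistant), 685 FPKM (erlotinib-resistant) and 520 FPKM (vehicle). ATP5G1 made up 31.9% of that sum in dual-resistant, 19.4% in erlotinib-resistant and 19.0% in vehicle cells. ATP5G2 made up the largest part in every library, at 56.9%, 72.2% and 67.4%. The total for subunit c was 1.08-fold above vehicle in dual-resistant and 1.32-fold above vehicle in erlotinib-resistant cells.

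Among the other parts of the synthase, ATP5J2 (chromosome 7, subunit f) stood at 328 FPKM in the dual-resistant, 273 FPKM in the erlotinib-resistant and 222 FPKM in the vehicle library, highest in the dual-resistant one. ATP5H, subunit d of the stalk, stood at 197, 142 and 239 FPKM, and ATP5J, coupling factor 6 of the stalk, at 70.8, 46.5 and 56.6 FPKM. Both were lowest in the erlotinib-resistant library. ATP5H was 1.68-fold lower there than in vehicle, and ATP5J was 1.51-fold higher in the dual-resistant than in the erlotinib-resistant library. ATP5S, which encodes no subunit, stood at 5.31, 12.1 and 8.32 FPKM. It was the 1 gene called lower in dual-resistant than in erlotinib-resistant cells, 2.08-fold, and that call was lost with equal sums.

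Complex I was lowest in the erlotinib-resistant library for 21 of its 38 genes, against 27.6% of all genes. Against vehicle, that library was lower in 28 of 38 as deposited, with a median of -0.37, where 49.5% of all genes were lower. With equal sums it was lower in 24 of 38, with a median of -0.20, where 5133 of 13381 of all genes were lower. Under either scaling 28 of 38 lay below the median of all genes. The dual-resistant library was higher than the erlotinib-resistant library in 24 of 38, with a median of 0.09, against 6398 of 13385 of all genes. Of the core subunits, which carry the flavin and the iron-sulfur clusters, 5 of 7 were lower in the erlotinib-resistant library than in vehicle. NDUFS8, an iron-sulfur subunit near the ubiquinone site, stood at 153 FPKM in the dual-resistant, 127 FPKM in the erlotinib-resistant and 203 FPKM in the vehicle library. NDUFV2, an iron-sulfur subunit of the NADH-oxidising tip, stood at 61.7, 58.6 and 92.2 FPKM. Both were below vehicle in each resistant library.

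Of the accessory subunits, NDUFB11, in the membrane arm (Entrez ID 54539, GRCh37 chromosome X, 47001615 to 47004609), had 64.6 FPKM in the dual-resistant, 48.2 FPKM in the erlotinib-resistant and 98.7 FPKM in the vehicle library. It was the 1 gene called lower in the erlotinib-resistant library against vehicle, 2.03-fold, and that call was lost with equal sums. NDUFB10, also of the membrane arm, stood at 71.5, 66.7 and 132 FPKM and was lower by 0.97 on the log2 scale in erlotinib-resistant cells than in vehicle cells. Not all NDUFB genes went this way. NDUFB8 stood at 110, 106 and 79.6 FPKM and NDUFB9 at 129, 150 and 110 FPKM, both lowest in vehicle. In all, 7 of 11 NDUFB genes were lower than vehicle in the erlotinib-resistant library.

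Within complex I, the dual-resistant and erlotinib-resistant libraries differed most in NDUFB2, NDUFS4 and NDUFC2. NDUFB2, a membrane arm subunit on GRCh37 chromosome 7 (140396481 to 140406446), had 190 FPKM in the dual-resistant, 104 FPKM in the erlotinib-resistant and 140 FPKM in the vehicle library. NDUFS4, which is needed to complete the NADH-oxidising tip, stood at 36.6, 66.0 and 68.7 FPKM. NDUFB2 was 1.82-fold higher and NDUFS4 1.78-fold lower in the dual-resistant than in the erlotinib-resistant library. NDUFC2 stood at 31.6, 18.2 and 35.3 FPKM, but shares its exons with NDUFC2-KCTD14, at 18.8, 26.5 and 25.6 FPKM. Summed, the overlapping pair stood at 50.4, 44.7 and 60.9 FPKM, so that the log2 difference between erlotinib-resistant and vehicle cells was -0.44, and not -0.92 as for NDUFC2 alone.

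NDUFB5 stood at 61.1 FPKM in the dual-resistant, 91.3 FPKM in the erlotinib-resistant and 76.4 FPKM in the vehicle library. NDUFA1, which had the highest level among the complex I names in all 3 libraries, stood at 282, 252 and 305 FPKM, and NDUFA13 at 171, 165 and 235 FPKM. NDUFA5 lies on chromosome 7 (GRCh37, 123181083 to 123197958) and stood at 36.5, 34.6 and 30.9 FPKM, 1.12-fold above vehicle in the erlotinib-resistant library. Of the complex I names not given above, NDUFA2 differed most between any 2 libraries, at 64.7, 50.6 and 84.3 FPKM, 1.65-fold lower in erlotinib-resistant than in vehicle cells.

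Complex III summed to 869 FPKM in the dual-resistant, 861 FPKM in the erlotinib-resistant and 936 FPKM in the vehicle library. UQCRH stood at 459 FPKM in the dual-resistant, 453 FPKM in the erlotinib-resistant and 434 FPKM in the vehicle library. UQCRC1 and UQCRC2 encode its large core proteins. UQCRC2 stood at 59.0, 88.4 and 101 FPKM, lowest in the dual-resistant library, and UQCRC1 at 89.5, 80.6 and 100.3 FPKM, lowest in the erlotinib-resistant library. UQCRC2 was 1.71-fold lower in dual-resistant than in vehicle cells. UQCRQ stood at 55.5, 51.7 and 80.5 FPKM, UQCR11 at 56.2, 42.2 and 60.3 FPKM and UQCRB at 20.3, 21.1 and 19.9 FPKM. UQCRFS1, the Rieske iron-sulfur protein, and UQCR10 were lower than vehicle in both resistant libraries, by at most 1.16-fold.

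Across all 81 genes, vehicle was the highest library for 45 (55.6%), against 34.2% of all genes. The erlotinib-resistant library was the lowest for 38 (46.9%), against 27.6%, and the dual-resistant library for 28 (34.6%), against 38.9%. For complex IV the dual-resistant library was the lowest for 11 of 13, COX6B2 among them. The levels decreased at both steps of treatment in 16 genes, 6 of them COX genes. Levels increased at both steps in 8 genes, among them NDUFA5, NDUFB8, SDHA, UQCRH, ATP5G1, ATP5J2 and ATP5SL. No share of all genes was taken for these counts by step, so whether they differ from the background was not tested.

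Other genes of the chain and of its assembly were taken from lists by function. Of 6 chain genes that the names do not catch, 1 was called lower in the dual-resistant library against vehicle and none higher. This was NDUFAB1, the mitochondrial acyl carrier protein held in complex I, at 56.4 FPKM in the dual-resistant, 88.6 FPKM in the erlotinib-resistant and 124.8 FPKM in the vehicle library. CYC1, cytochrome c1 of complex III, stood at 94.05, 130 and 126 FPKM, and CYCS, cytochrome c, at 52.9, 50.3 and 50.8 FPKM. ATPIF1, the inhibitor of ATP synthase, stood at 104, 147 and 144 FPKM. CYC1 and ATPIF1 were lowest in the dual-resistant library, and CYCS differed little.

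Of 13 assembly factors of complex I, none was called either way in any comparison, with a median of -0.35 for dual-resistant minus vehicle. Of 17 assembly factors of complex IV, none was called either, with a median of -0.36 in the same comparison. They went both ways. SURF1 stood at 33.0 FPKM in the dual-resistant, 46.3 FPKM in the erlotinib-resistant and 57.9 FPKM in the vehicle library, and COX10, which makes the farnesylated heme of the oxidase, at 21.2, 21.1 and 12.3 FPKM. TMEM70, an assembly factor of ATP synthase, stood at 61.7, 66.3 and 131 FPKM and was called lower in dual-resistant than in vehicle cells, as 1 of 3 in its list. Of 7 assembly factors of complexes II and III, 1 was called lower there, C6orf125 (now UQCC2), at 87.7, 122 and 198.9 FPKM.

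Of 11 regulators of mitochondrial biogenesis compared, 1 was called higher in the dual-resistant library, against vehicle and against the erlotinib-resistant library, and none lower. This was PPARGC1A, a coactivator that drives mitochondrial gene expression, at 2.02 FPKM in the dual-resistant, 0.0665 FPKM in the erlotinib-resistant and 0.0574 FPKM in the vehicle library. No other library reached 1 FPKM for it, so the limit fixed its direction. For erlotinib-resistant minus vehicle, 9 of the 11 regulators were above 0, with a median of 0.41, against 6697 of 13381 of all genes. The 9 include PPARGC1A, which was under 1 FPKM in both of these libraries. ESRRA, an orphan receptor that works with it, stood at 35.3, 66.8 and 50.1 FPKM, TFAM, which packs mitochondrial DNA, at 33.8, 35.6 and 26.5 FPKM, and YY1 at 43.8, 74.7 and 69.2 FPKM. The gene NRF1 stood at 4.34, 4.77 and 5.98 FPKM and GABPA at 7.64, 10.7 and 6.76 FPKM. YY1 and ESRRA were lowest in the dual-resistant library, neither by 2-fold.

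Of 13 genes of the citric acid cycle, 1 was called higher in dual-resistant than in vehicle cells and none lower, with a median of 0.00. This was DLD, a shared dehydrogenase subunit, at 42.5 FPKM in the dual-resistant, 37.96 FPKM in the erlotinib-resistant and 19.8 FPKM in the vehicle library. Of 12 genes of pyruvate entry, 1 was called higher and 1 lower in that comparison. PDK1, a kinase that switches pyruvate dehydrogenase off, stood at 18.5, 12.9 and 7.06 FPKM, and BRP44L (now MPC1), a subunit of the mitochondrial pyruvate carrier, at 7.99, 17.1 and 33.4 FPKM. PDK1 was highest and BRP44L lowest in the dual-resistant library. BRP44 (now MPC2), the partner of BRP44L, ran the other way, at 26.3, 12.3 and 14.9 FPKM. PDK4 stood at 3.27, 5.61 and 1.45 FPKM and PDP2 at 3.41, 9.04 and 3.95 FPKM, and both were called higher in erlotinib-resistant than in vehicle cells. Between the resistant libraries, BRP44 was called higher and BRP44L and PDP2 lower in the dual-resistant one.

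Among 19 import, carrier and chaperone genes of mitochondria, SLC25A5, an ADP and ATP carrier, stood at 342 FPKM in the dual-resistant, 897 FPKM in the erlotinib-resistant and 569 FPKM in the vehicle library. It was called lower in dual-resistant than in erlotinib-resistant cells, the 1 call of that list in that comparison. TIMM44, of the import motor, stood at 30.0, 48.2 and 63.2 FPKM and was the 1 call against vehicle. None of 6 fission and fusion genes was called in any comparison. Of 77 mitochondrial ribosomal protein genes compared, 2 were higher and 6 lower in dual-resistant than in vehicle cells, with a median of -0.26 (log2 difference). Of 79 cytosolic ones, 2 were higher and 5 lower, and the median was -0.42. Over all genes, 11% were higher and 10.4% lower in that comparison. The 81 oxidative phosphorylation genes, at -0.16 and with no call, lay between these lists and the median of all genes.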

How the data were processed

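RNA of 3 HCC827 populations was sequenced, with 1 library each. The authors deposited 1 table of FPKM values with 1 column per library, made with TopHat 1.3 and Cufflinks 1.3 on GRCh37, per the submitters' processing notes. Strandedness, gene set and program settings: not given in the sources used here. FPKM of short transcripts can depend on the fragment length assumed.

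From these values, rows sharing a symbol were summed, and genes at 1 FPKM or more in at least 1 library were compared by the log2 difference of FPKM + 1, which understates differences of low genes. A call is a difference of 2-fold or more. With 1 library per group no test was possible. Missing cells numbered 36 (dual-resistant), 25 (erlotinib-resistant) and 35 (vehicle) and were left out, and none fell on these genes. Start positions were taken to count from 0 and are given from 1. The calling step was checked on simulated data. Protein lengths came from GENCODE coding sequences, since no protein table was used here, and promoters from RefSeq, matched by Entrez ID. Python 3.11.15, pandas 2.3.3, numpy 2.4.6, scipy 1.17.1 and matplotlib 3.10.9 were used.

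The genes and lists were chosen with earlier results of these data known. Genes are named if they passed 2-fold, lay among the 2 highest or lowest differences or the 2 highest levels of their complex, were isoform partners or SDH genes, or lie on chromosome 7, and up to 4 per related list. NDUFS8, NDUFV2, NDUFA2, COX5A, ATP5A1, ATP5C1, ATP5D, UQCRFS1, UQCR10, CYCS, COX10, TFAM, NRF1 and GABPA were named after their values were seen. The values of 1 of the genes are not reported here.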

Additional observations from a re-analysis of the deposited data

How the results depend on the processing

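No replicate was left out, since each group holds 1 library, and the spread between cultures is unknown. No paired analysis was possible because each group holds 1 library. For medians, a move of over 0.1 on the log2 scale was counted as a change. The comparisons below are given as E-V for erlotinib-resistant minus vehicle, D-E for dual-resistant minus erlotinib-resistant and D-V for dual-resistant minus vehicle.

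Scaling the libraries to equal sums moved the medians of E-V to -0.024 over all 81 genes, -0.20 for complex I, 0.46 for complex II, -0.025 for complex III, 0.065 for complex IV and -0.0007 for complex V. It moved those of D-V to 0.10, -0.027, 0.46, 0.16, -0.14 and 0.16 in the same order. The whole set, complex III and complex V were thus above 0 there, as was complex IV in E-V. The median of all genes moved as well, to 0.14 in E-V and 0.22 in D-V, and these medians stayed below it. Equal sums left 0 genes lower in E-V and in D-E, and made 2 higher in D-V. With a pseudocount of 0.1 FPKM, 2 genes were higher in E-V and 3 lower in D-E, and the added calls were UQCRHL and COX6B2, whose direction the 1 FPKM limit fixed. With subunits and isoforms only, and NDUFA4 in complex IV, the median of complex IV in E-V was -0.28, and 0 genes were lower in D-E. With no filter on low values, the median of complex IV in D-V was -0.21. A 1.5-fold limit gave 2 higher and 9 lower in E-V, 5 and 6 in D-E, and 3 and 9 in D-V. The 2 higher in E-V and 2 of the 6 lower in D-E were again UQCRHL and COX6B2. The other 166 values of counts and medians held under these and the other alternatives, which were median-ratio scaling, a filter of 5 FPKM and rows kept apart.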
